A study of Mus musculus with 8 samples.

Results

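The 8 genes followed here are used as markers of macrophages in oxygen-poor tumour tissue, and their accessible chromatin was read in BV2 cells, a mouse microglial line. They are Mrc1, Spp1, Gpnmb, Cd274, Lgals3, Chil3, Cd163 and Msr1. These are 8 of the 21883 protein-coding genes of the RefSeq table. They were taken by name, and every peak of accessible chromatin within 10 kb of their gene bodies was collected in each of 8 libraries. The cells were cultured by themselves (monoculture) or together with GL261, a glioma line of the mouse (co-culture), and each culture was then kept at 21% oxygen (normoxia) or below 0.1% oxygen (hypoxia) for 16 h. That gives 4 groups with 2 biological replicates each. The labels state that formaldehyde fixation took place before hypoxic cells left the chamber, and that CD45-positive cells were sorted before the Tn5 reaction of ATAC-seq, in which a transposase cuts and tags accessible DNA. The series compares hypoxic with normoxic and co-cultured with monocultured microglia. BV2 is a single immortalised line, so the 2 biological replicates of a group are of that line and not of separate animals. An ATAC-seq peak near a gene reports accessible DNA, not transcription, and in bulk cells more cells open at a site cannot be told apart from a wider opening per cell.

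Macrophages entering hypoxic tumour regions are known for a wound-healing and immune-dampening state in which several of these genes are transcribed together. Osteopontin (Spp1) and galectin-3 (Lgals3) are secreted binding proteins, and PD-L1 (Cd274) is a surface ligand that restrains T cells. CD206 (Mrc1), CD163 (Cd163) and scavenger receptor A (Msr1) are uptake receptors, GPNMB is a transmembrane glycoprotein of macrophages that handle lipid and debris, and Ym1 (Chil3) is a secreted chitinase-like protein that marks the response of mouse macrophages to interleukin 4. Hypoxia acts on chromatin through transcription factors such as HIF-1, whose response element holds the letters ACGTG, and through the loss of oxygen as a cofactor of histone and DNA demethylases.

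The promoters of Spp1, Gpnmb and Cd274 are shown because a called peak lay on each of them in at least 3 libraries. The 250 bases before the RefSeq start (GRCm38.p6) are given on the gene's strand, 5′ to 3′. Capitals mark matches to GGAAGT, a core of ETS-family factors such as PU.1, or to TTNCNNAA, a core of C/EBP factors.
Spp1, chr5:104434861-104435110, plus strand, peak in 8 libraries: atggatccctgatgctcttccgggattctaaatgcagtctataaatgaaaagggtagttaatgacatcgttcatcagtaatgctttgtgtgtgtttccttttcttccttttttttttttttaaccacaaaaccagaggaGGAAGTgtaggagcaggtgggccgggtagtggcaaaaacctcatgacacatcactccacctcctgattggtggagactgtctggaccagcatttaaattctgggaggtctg
Gpnmb, chr6:49036268-49036517, plus strand, peak in 7 libraries: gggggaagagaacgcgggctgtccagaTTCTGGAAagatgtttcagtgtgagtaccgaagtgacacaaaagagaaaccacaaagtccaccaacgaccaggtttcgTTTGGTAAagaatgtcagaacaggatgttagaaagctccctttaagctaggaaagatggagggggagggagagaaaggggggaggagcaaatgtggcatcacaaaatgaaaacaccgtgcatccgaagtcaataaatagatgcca
Cd274, chr19:29367188-29367437, plus strand, peak in 3 libraries: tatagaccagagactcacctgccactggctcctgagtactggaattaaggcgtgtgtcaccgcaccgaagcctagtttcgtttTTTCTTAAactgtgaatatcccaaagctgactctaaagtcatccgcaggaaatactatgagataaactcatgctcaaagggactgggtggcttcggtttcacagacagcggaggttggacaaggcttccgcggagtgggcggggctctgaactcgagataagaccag
Chil3, chr3:106167565-106167814, minus strand, peak in no library, is given for contrast: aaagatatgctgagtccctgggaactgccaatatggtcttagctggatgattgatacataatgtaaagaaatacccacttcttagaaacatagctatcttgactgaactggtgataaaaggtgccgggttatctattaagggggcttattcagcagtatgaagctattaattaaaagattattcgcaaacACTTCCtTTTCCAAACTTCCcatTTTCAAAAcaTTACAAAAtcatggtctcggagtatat
The table held windows for 7 of the 8 genes and none for Msr1. The windows of Mrc1, Lgals3 and Cd163 and a second window of Spp1, for a start further inside the gene, carried no peak in any library. Among all 32817 windows of the table, 11.4% carried a peak in all 8 libraries and 65.6% in none. GC content was 43.6% at Spp1, 47.2% at Gpnmb, 50.4% at Cd274, 36.4% at Chil3 and 36.8% at Cd163, against a median of 52.4% over all windows. The Lgals3 window was the richest of the members' windows in GC, with 66.0% and 13 CpG pairs.

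For 6 motifs, matches were searched on both strands of these windows. Neither ACGTG, nor CACGTG (an E-box, which contains ACGTG), nor TGANTCA (the AP-1 site) occurred in any window of the 7 genes. Of all windows, 16.6% held ACGTG, 6.02% held CACGTG and 6.75% held TGANTCA. The Spp1 promoter had 1 match to GGAAGT, which begins 111 bases before the start, and 19.7% of all windows held this motif. The Gpnmb promoter had 2 matches to TTNCNNAA and the Cd274 promoter 1, against 36.8% of all windows with any. The Chil3 window, without a peak, had 2 matches to GGAAGT and 3 to TTNCNNAA, and a pair of these overlap. A STAT6-type site, written as TTC and GAA with 4 bases between them, occurred 2 times in the Lgals3 window and in 5.85% of all windows. A match describes these letters and is no evidence of a bound factor.

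The 8 lists held from 9910 to 29658 peaks, and the authors' lowest −log10 q was between 2.00 and 2.08 in each. Coverage differed too: the commonest background solved from the lists ran from 0.758 to 1.45 fragments per position, and both monoculture normoxia lists were the shortest (13333 and 9910 peaks). Many comparisons are therefore also given for equal-number lists, the 9910 peaks of highest −log10 p in each library. Where a list shows no peak at a gene, its signal stayed under the authors' threshold at that depth. Of 12 markers of microglia and macrophages, 8 to 12 had a peak in each library, and 5 to 8 in each equal-number list. Tmem119 and Itgam had a peak in only 3 libraries each, and those of Tmem119 were all normoxic. Of 12 markers of glioma and glial cells, 0 had a peak in either monoculture normoxia library, 2 and 3 in monoculture hypoxia (S100b, Cspg4 and Vim), 6 and 3 for co-culture normoxia, and 8 and 6 for co-culture hypoxia. Sox2 and Nes had peaks only in co-culture normoxia replicate 1 and both co-culture hypoxia libraries, and Olig2, Egfr and Fabp7 in no library. In the equal-number lists 0 or 1 of these 12 markers had a peak in any library. The part of any GL261 cells left after the sort in the co-culture values below was not tested.

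A peak was found at 3 and 4 members in the monoculture normoxia libraries and at 5 or 6 in every other library. The group values were 3.5 ± 0.707 there, 5.5 ± 0.707 with monoculture hypoxia, 5.0 ± 0 with co-culture normoxia and 5.5 ± 0.707 with co-culture hypoxia (SD, n = 2 a group). Spp1, Cd274 and Msr1 had a peak in both monoculture normoxia libraries, and Gpnmb in replicate 2. Over all protein-coding genes the share with a peak moved the same way, from 42.2% and 35.2% in monoculture normoxia to 57.1% and 57.9% in monoculture hypoxia. It was 58.6% and 59.7% in co-culture at normoxia, and 64.1% and 60.2% at hypoxia. In equal-number lists the groups overlapped: 3 and 4 members in monoculture normoxia, 4 and 2 in monoculture hypoxia, 2 and 4 in co-culture normoxia, and 2 and 3 in co-culture hypoxia. Over all protein-coding genes the share there was 35.5% and 35.2%, 34.0% and 31.9%, 38.5% and 40.4%, and 39.6% and 43.2% in the same order, so that all co-culture libraries lay above all monoculture ones. The higher number of members with a peak outside monoculture normoxia was thus seen only in lists of unequal length.

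**Figure D1:**
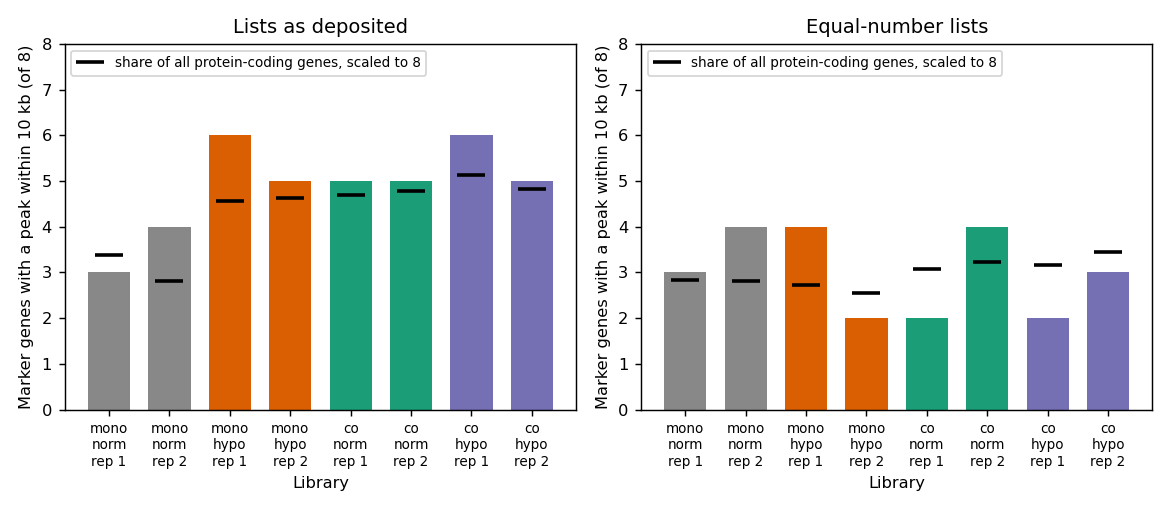
Number of the 8 marker genes with at least 1 peak within 10 kb in each library (bars, y axis 0 to 8), in the lists as deposited (left) and in lists cut to the 9910 strongest peaks (right). Black lines give the share of all protein-coding genes with a peak, scaled to 8. At left the bars are at 3 and 4 in monoculture normoxia and at 5 or 6 elsewhere, and the black lines move the same way. At right they lie between 2 and 4 and no group stands above monoculture normoxia.

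Peaks near members numbered 5 and 4 in monoculture normoxia, 12 and 11 in monoculture hypoxia, 7 and 8 in co-culture normoxia, and 15 and 8 in co-culture hypoxia. The group means were 4.50 ± 0.707, 11.5 ± 0.707, 7.5 ± 0.707 and 11.5 ± 4.95 (SD, n = 2). All 4 hypoxic libraries thus held at least as many peaks near these genes as any normoxic library, with a tie at 8. The whole lists were of 13333 and 9910, 24370 and 26339, 21790 and 21826, and 29658 and 21633 peaks in the same order, so that member counts and list length moved nearly together. Co-culture libraries averaged 1.5 more than monoculture libraries, and without co-culture hypoxia replicate 1 this difference was −0.250. In equal-number lists the counts were 3, 4, 4, 2, 2, 5, 2 and 3 in the same order, and the groups overlapped.

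Merging overlapping peaks of the 8 lists gave 20 regions within 10 kb of the members, out of 29790 near any protein-coding gene and 40784 in all. They lay at 6 genes: 4 at Mrc1, 4 at Spp1, 3 at Gpnmb, 4 at Cd274, 3 at Lgals3 and 2 at Msr1. Chil3 and Cd163 had none in any library. Of the 20 regions, 7 entered an equal-number list. Of the member regions found in a group, 2 were in both replicates and 5 in 1 of them in monoculture normoxia (28.6% shared, against 51.0% over all regions near genes), and 6 and 3 in co-culture normoxia (66.7%, against 68.0%). They were 7 and 9 in monoculture hypoxia (43.8%, against 68.6%), and 8 and 7 in co-culture hypoxia (53.3%, against 64.3%). These numbers are small, and the differences from all regions were not tested.

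**Figure D2:**
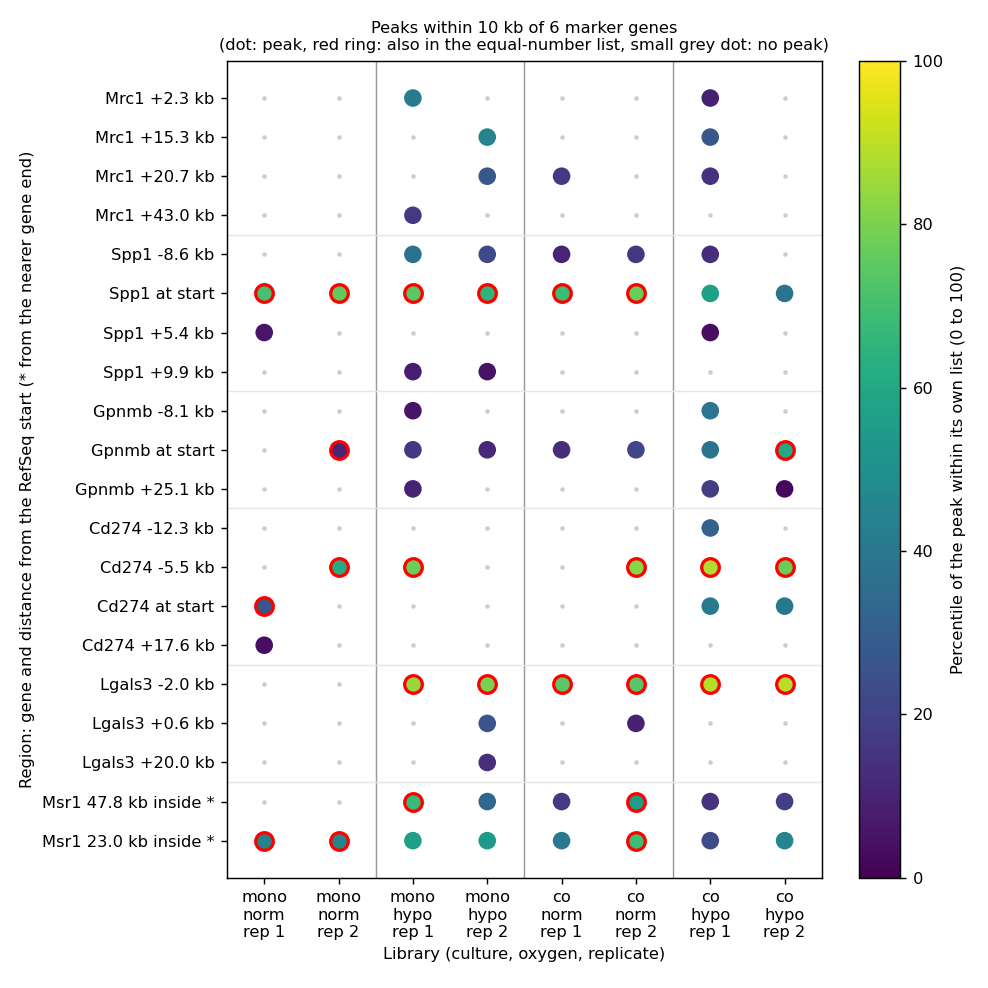
The 20 regions near 6 marker genes (rows, with the distance of the region's middle from the RefSeq start, or for Msr1 from the nearer gene end) in the 8 libraries (columns). A coloured dot is a peak, its colour the percentile of its −log10 p within its own list, and a red ring marks peaks that are also in the equal-number list. The Spp1 start and the Msr1 region at 23.0 kb have a dot in all 8 columns, and the Lgals3 region 2.03 kb before the start has 6 ringed dots and none in monoculture normoxia.

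Spp1, the gene of osteopontin, had a peak in all 8 libraries at its start (chr5:104434710-104435418, overlapping the promoter printed above). It held 34 and 40 fragments at the summit in monoculture normoxia, 63 and 68 in monoculture hypoxia, 46 and 53 in co-culture normoxia, and 62 and 52 in co-culture hypoxia. Over list background this is 44.9 and 38.7, 43.5 and 48.2, 42.9 and 38.3, and 43.5 and 44.4. Monoculture normoxia overlapped every other group, and co-culture normoxia lay below both hypoxic groups. Its height over background had a mean of 44.9 in hypoxia and 41.2 in normoxia, a ratio of 1.09 beside a median ratio of 1.10 over the 5198 regions found in all 8 libraries.

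What did separate at Spp1 was the coverage around the peak. The local background, which the peak caller takes from the surrounding DNA, was solved from the deposited fold and p-value and divided by list background. It was 6.35 and 6.62 in monoculture normoxia, 6.89 and 4.61 in co-culture normoxia, 7.46 and 10.2 in monoculture hypoxia, and 9.32 and 12.4 in co-culture hypoxia. All 4 hypoxic libraries lay above all 4 normoxic ones, as did 4.27% of the 5198 regions. The mean was 9.84 in hypoxia and 6.12 in normoxia, a ratio of 1.61, beside a median of 1.00 over those regions and 6.12% of regions with a ratio at least as high. The same region ranked at percentiles 70.4 and 75.5, 74.0 and 65.2, 68.5 and 77.3 in the first 3 groups and at 57.3 and 38.2 in co-culture hypoxia, where it dropped out of both equal-number lists. The deposited p-value behind this rank is computed against the local background. Both this measure and its contrast were chosen after the values were seen, so they are descriptions with no test.

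Weaker regions, 3 in number, flanked Spp1. That 8.57 kb before the start (chr5:104425999-104427074) was present in both monoculture hypoxia libraries (percentiles 37.0 and 22.3), both co-culture normoxia libraries (9.82 and 16.4) and co-culture hypoxia replicate 1 (12.5). A region near Pkd2 (chr5:104445902-104446373) was present in both monoculture hypoxia libraries alone, at percentiles 8.43 and 4.87. The last, just past the gene's end (chr5:104441139-104442055), was in monoculture normoxia replicate 1 and co-culture hypoxia replicate 1, at 5.54 and 3.37. None of these 3 entered an equal-number list. Spp1 averaged 0.750 more peaks in hypoxia than in normoxia (exact permutation test, p = 0.444), and in equal-number lists the difference was −0.50. It was 0.250 without co-culture hypoxia replicate 1, 1.25 without its replicate 2 and 0.50 without monoculture normoxia replicate 2.

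Lgals3, the gene of galectin-3, had the region of the set with the highest median percentile over the libraries that had the peak (82.2). It lay 2.03 kb before the start (chr14:47371517-47372139). Neither monoculture normoxia library had it. The summit held 67 and 63 fragments in monoculture hypoxia, 39 and 44 in co-culture normoxia, and 95 and 86 in co-culture hypoxia. Percentiles were 84.6 and 79.7, 74.6 and 73.5, and 88.7 and 89.0, and all 6 peaks entered the equal-number lists. Either hypoxia or co-culture alone thus went with the peak, and the 3 groups that had it did not overlap in summit fragments.

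Over list background the Lgals3 summit was 46.3 and 44.6 in monoculture hypoxia, 36.4 and 31.8 in co-culture normoxia, and 66.7 and 73.5 in co-culture hypoxia. The co-culture hypoxia mean of 70.1 was 1.76 times the mean of the other 4 libraries (39.8), where the median over 9560 regions found in these 6 libraries was 1.15 and 17.5% had a ratio at least as high. Local background was also highest in co-culture hypoxia and lowest in co-culture normoxia, at 5.95 and 5.89, 3.92 and 3.43, and 8.38 and 7.91. The authors' deposited fold, taken over local background, was 7.08 and 6.87, 7.69 and 7.83, and 7.42 and 8.49, so that on this scale both co-culture groups overlapped and lay above monoculture hypoxia. In the monoculture normoxia libraries, a summit of 11 to 18 fragments in replicate 1 and 13 to 22 in replicate 2 would have been called at those local backgrounds. That is 14.5 to 23.7 and 12.6 to 21.3 over list background, below every value measured in the other 6 libraries. Presence in every library except this pair was found at 5.45% of all regions near genes, and in equal-number lists at 1.23% of 15170, where Lgals3 was the only member. A second region just inside the gene (chr14:47374271-47374619) was in monoculture hypoxia replicate 2 and co-culture normoxia replicate 2, at percentiles 26.3 and 9.10, and 1 near Dlgap5 in monoculture hypoxia replicate 2 alone. By number of peaks, Lgals3 differed by 0.750 with oxygen (p = 0.667) and by 0.250 with culture (p = 1.00, both exact permutation tests). The oxygen difference was 0.250 without monoculture hypoxia replicate 2, 1.25 without its replicate 1 and 0.50 without co-culture normoxia replicate 1. The culture difference was −0.250 without monoculture hypoxia replicate 1 and 0.750 without its replicate 2, and 0.50 and 0 without co-culture normoxia replicates 1 and 2.

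Cd274, which encodes PD-L1, had its strongest region 5.45 kb before the curated start (chr19:29361620-29362367), at the lower bound that predicted transcript models give the gene and within 10 kb of Plgrkt. The summit held 21 fragments in monoculture normoxia replicate 2, 41 in monoculture hypoxia replicate 1, 46 in co-culture normoxia replicate 2, and 60 and 45 in co-culture hypoxia. Only co-culture hypoxia had it in both replicates. Over list background it was 20.3, 28.3, 33.3, 42.1 and 38.5, and all 5 peaks entered the equal-number lists, at percentiles 61.5 to 88.1. The 3 libraries without it would have called a summit of 10.6 to 13.2 (monoculture normoxia replicate 1), 7.79 to 9.92 (monoculture hypoxia replicate 2) and 9.33 to 11.2 (co-culture normoxia replicate 1), so in each of these groups the library with the peak lay above what its partner would have called. The start itself (chr19:29367126-29367729), also within 10 kb of Plgrkt, was called in monoculture normoxia replicate 1 (percentile 25.8) and both co-culture hypoxia libraries (40.8 and 40.3). Cd274 counted 2 and 1 peaks in monoculture normoxia, 1 and 0 in monoculture hypoxia, 0 and 1 in co-culture normoxia, and 3 and 2 in co-culture hypoxia, a difference of 0.50 with oxygen and 0.50 with culture (p = 0.778 each, exact permutation test). Leaving out single libraries moved the oxygen difference between 0.250 (without monoculture normoxia replicate 2, monoculture hypoxia replicate 1, co-culture normoxia replicate 1 or co-culture hypoxia replicate 1) and 0.750 (without any of the other 4). The culture difference moved between the same values, with 0.250 without replicate 2 of monoculture normoxia, monoculture hypoxia or co-culture normoxia or without co-culture hypoxia replicate 1. Pdcd1lg2, the neighbouring gene of the other PD-1 ligand, had 0, 0, 3, 3, 4, 3, 4 and 2 in the same order.

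Gpnmb was called at its start (chr6:49035839-49037125) in every library but monoculture normoxia replicate 1. The summit held 13 fragments in monoculture normoxia replicate 2, 24 and 22 in monoculture hypoxia, 19 and 18 in co-culture normoxia, and 44 and 45 in co-culture hypoxia. Over list background these are 12.6, 16.6 and 15.6, 17.7 and 13.0, and 30.9 and 38.5. Summits in this region lay up to 695 bp apart. In monoculture normoxia replicate 1, a summit of 11.9 to 21.1 would have been called at the local backgrounds of the other libraries. That range takes in every value outside co-culture hypoxia. Both co-culture hypoxia libraries stood above the other 5, while monoculture hypoxia and co-culture normoxia overlapped. Local background over list background was also highest there, at 6.86 and 5.95 against 2.22 to 3.9 in the other 5. The authors' deposited fold, which is taken over local background, overlapped, at 4.18 and 5.78 against 3.73 to 4.67. The co-culture hypoxia mean of 34.7 was 2.21 times the mean of monoculture hypoxia and co-culture normoxia (15.7), a ratio that 8.03% of the 9560 regions reached. Percentiles were 9.77, 16.2, 11.6, 12.9 and 21.1 in those 5 libraries and 38.5 and 59.8 in co-culture hypoxia.

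At low rank, Gpnmb had 2 more regions. One 8.10 kb before the start (chr6:49028082-49028746) was in monoculture hypoxia replicate 1 (5.28) and co-culture hypoxia replicate 1 (38.7). Another, 25.1 kb after the start and past the gene's end (chr6:49061084-49062175), was in monoculture hypoxia replicate 1 (9.54) and both co-culture hypoxia libraries (17.8 and 2.33), and in no normoxic library. Gpnmb averaged 2.25 peaks in hypoxia and 0.750 in normoxia (two-sided exact permutation test, p = 0.111, adjusted over 15210 genes 0.794). The difference of 1.5 was 1.0 without monoculture hypoxia replicate 1 and 2.0 without its replicate 2.

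Mrc1, the mannose receptor gene, had no peak at its start. Its 4 regions lay inside the gene body (chr2:14229414-14332023), at 2.28, 15.3, 20.7 and 43.0 kb from the start, and none entered an equal-number list. The first (chr2:14231527-14231868) was in monoculture hypoxia replicate 1 (percentile 41.2) and co-culture hypoxia replicate 1 (8.96), the second (chr2:14244414-14245036) in monoculture hypoxia replicate 2 (45.1) and co-culture hypoxia replicate 1 (27.2). The third (chr2:14249877-14250314) was in those last 2 libraries (27.2 and 14.4) and co-culture normoxia replicate 1 (17.0). The fourth was in monoculture hypoxia replicate 1 alone. In all, Mrc1 had 0 and 0, 2 and 2, 1 and 0, and 3 and 0 peaks. Hypoxic libraries averaged 1.75 and normoxic ones 0.250, but co-culture hypoxia replicate 2, with 0, was among the normoxic values (exact permutation test, p = 0.167, adjusted 0.794). The difference of 1.5 was 0.750 without co-culture hypoxia replicate 1 and 2.25 without its replicate 2. Both monoculture hypoxia libraries had 2 peaks and shared none of them.

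Msr1, the gene of scavenger receptor A, had a region in all 8 libraries, 23.0 kb inside the upper end of the gene body (chr8:39618969-39620507). Its summit over list background was 19.8 and 18.4 in monoculture normoxia, 20 and 24.1 in monoculture hypoxia, 20.5 and 25.3 in co-culture normoxia, and 14.0 and 19.7 in co-culture hypoxia. Monoculture normoxia and co-culture hypoxia overlapped, as did the other 2 groups, and the first pair lay below the second by a narrow margin (19.8 against 20). Summits in this region lay up to 481 bp apart, so heights were not all read at the same position. The second region, 47.8 kb inside the same end (chr8:39594692-39595267), was in every library but the monoculture normoxia pair, at 19.3 and 12, 10.3 and 16.6, and 9.13 and 10.3. The monoculture normoxia libraries would have called summits of 7.92 to 9.23 and 6.77 to 7.74 there, the highest of which is above the lowest value measured. Unlike Gpnmb and Lgals3, neither Msr1 region was highest in co-culture hypoxia: the mean of this group was 0.749 and 0.665 times that of monoculture hypoxia and co-culture normoxia, ratios that 88.0% and 93.8% of regions reached. Msr1 had 1 and 1 peaks in monoculture normoxia and 2 in every other library (p = 0.333 for oxygen and for culture, exact permutation test). In equal-number lists its difference with oxygen was −0.750.

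Cd163, the haemoglobin-haptoglobin scavenger receptor (chr6:124304636-124330529), and Chil3 (chr3:106147554-106167564) had no peak within 10 kb in any of the 8 lists. The summits that were called in these lists held at least 6 to 8 fragments, so weaker accessibility at either gene was not detectable. Chil3 stands in a family of near-identical neighbouring genes, and how reads that map to more than one place were treated is not given in the sources used here. Of 30 other genes of alternative activation, uptake and lipid handling, Retnla, Ccl17 and Ccl22 likewise had none. Retnla, like Chil3, is a classic target of interleukin 4 in mouse macrophages.

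**Figure D3:**
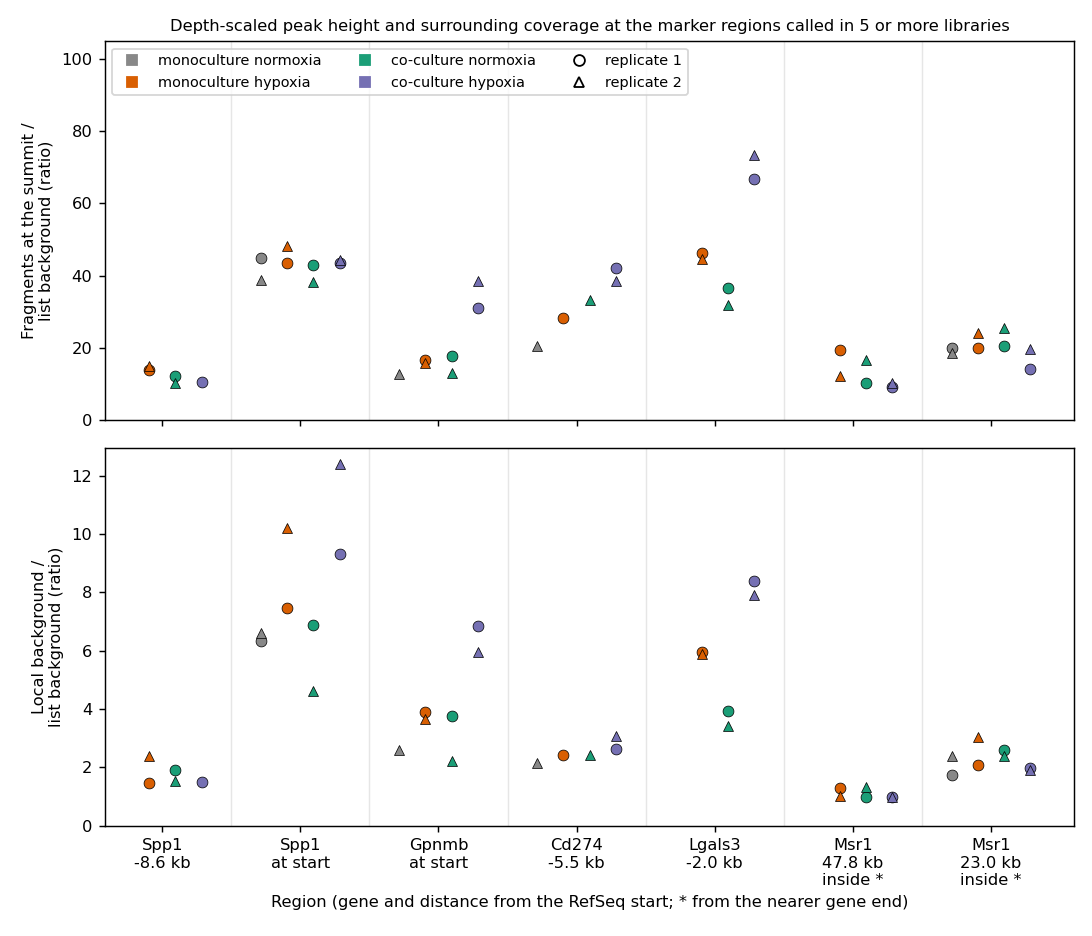
Fragments at the summit (upper panel) and local background (lower panel), each divided by the list's own background, for the 7 marker regions called in at least 5 libraries. Colours are the 4 groups, circles replicate 1 and triangles replicate 2, and a missing symbol is a library without the peak. Lgals3 and Gpnmb reach 66.7 to 73.5 and 30.9 to 38.5 in co-culture hypoxia, above their other libraries, and in the lower panel the Spp1 start is at 7.46 to 12.4 in hypoxia against 4.61 to 6.89 in normoxia.

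Height in the 5 member regions found in both monoculture hypoxia, both co-culture normoxia and both co-culture hypoxia libraries can be set against all 9560 such regions. Both co-culture hypoxia libraries were above the other 4 in 2 of these 5 (Gpnmb start and Lgals3), where 32.6% of all such regions did the same, so this order is common. All 4 hypoxic libraries were above both co-culture normoxia libraries in 2 of the 5 (Spp1 start and Lgals3), against 10.2% of regions. At the Spp1 start the margin was narrow (43.5 against 42.9), and monoculture normoxia, left out of this order, was at 44.9 and 38.7. These height orders, and the height ratios given above, were not among the planned comparisons, so they are descriptions with no test. Co-culture hypoxia also had peaks at the most glial markers (8 and 6 of 12), and monoculture hypoxia, which held no GL261 cells, had 2 and 3. The part of glial chromatin in the co-culture values was not tested.

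Presence was then compared group by group, counting a region as gained where it was in both replicates of one condition and in no replicate of the other, and as lost the other way round. Hypoxia in monoculture gained 4 of the 20 member regions (Lgals3 at 2.03 kb, the Msr1 region at 47.8 kb, and Spp1 at 8.57 kb and near Pkd2), against 17.6% of the 29790 regions near genes. It lost 0, against 0.178%. Co-culture in normoxia gained 3 of these same 4 regions, all but that near Pkd2 (13.4%), and lost 0 (0.144%). Both of these contrasts use the monoculture normoxia pair, so their gains are not independent. Hypoxia within co-culture gained 2 (the Cd274 start and Gpnmb at 25.1 kb, 5.98%) and lost 0 (2.08%). Co-culture within hypoxia gained 1 (the Cd274 start, 6.15%) and lost 1 (Spp1 near Pkd2, 3.53%). The members' shares were near these backgrounds.

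No member region separated 4 libraries from 4. Hypoxia in both cultures gained 0 of 20 (1.93% of regions near genes) and lost 0 (0.0235%), and co-culture at both oxygen levels gained 0 (2.01%) and lost 0 (0.0134%). Regions present in all 8 libraries were 2 of 20 (the Spp1 start and the Msr1 region at 23.0 kb), against 17.6%, and regions present in all but the monoculture normoxia pair were 2 (Lgals3 and Msr1 at 47.8 kb), against 5.45%. Single libraries decide several of these counts. In each case the share of all regions near genes, given in brackets, was higher too. Hypoxia in monoculture gained 8 of 19 without monoculture hypoxia replicate 1 (30.1%) or 2 (27.3%). Without monoculture normoxia replicate 2, hypoxia in monoculture lost 3 of 20 (1.78%), as did co-culture in normoxia (2.21%). Hypoxia in co-culture gained 7 of 20 without co-culture hypoxia replicate 2 (20.2%), and lost 1 without co-culture hypoxia replicate 1 (6.93%) or co-culture normoxia replicate 1 (6.10%). Co-culture in hypoxia gained 3 without co-culture hypoxia replicate 2 (17.3%) or monoculture hypoxia replicate 1 (9.15%). It lost 3 without monoculture hypoxia replicate 1 (10.6%), and 2 without monoculture hypoxia replicate 2 (8.06%) or co-culture hypoxia replicate 1 (11.7%). Without monoculture hypoxia replicate 2, hypoxia in both cultures gained 1 (2.69%), the Gpnmb region at 25.1 kb.

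In equal-number lists hypoxia in monoculture gained only the Lgals3 region (6.83% of 15170 regions) and lost only the Msr1 region at 23.0 kb (5.35%). Co-culture in normoxia also gained Lgals3 alone (5.17%). The Spp1 start was lost with hypoxia in co-culture (5.63%) and with co-culture in hypoxia (6.06%). Lgals3 was thus the only member whose gain held in both kinds of list. Of the 7 member regions in equal-number lists, 0 were in all 8 libraries (19.2% of the 15170).

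The number of peaks per gene was tested for all 15210 protein-coding genes with a peak, with oxygen labels permuted within culture and culture labels within oxygen (36 relabellings, two-sided exact permutation test, smallest possible p 0.0556). With 2 libraries a group this design cannot reach 0.05. At that smallest p, 5.69% of genes had more peaks in hypoxia and 5.54% more in co-culture, and no member was among them. No gene passed after Benjamini-Hochberg adjustment, the lowest adjusted values being 0.794 for oxygen and 0.897 for culture, and 0 genes had an unadjusted p under 0.05. All 6 members with a peak averaged more peaks in hypoxia in the deposited lists, with a median difference of 0.750 against 0.50 over all genes, of which 70.9% were higher. In equal-number lists Lgals3 alone was higher (0.50), Spp1 (−0.50) and Msr1 (−0.750) were lower, and Mrc1, Gpnmb and Cd274 were at 0. Counting only peaks that overlap the gene body, Mrc1 (1.5) and Msr1 (0.50) were as before, Gpnmb was at 0.250, and Spp1, Cd274 and Lgals3 were at 0. For culture, 4 were higher and Spp1 was lower (−0.250), with a median of 0.375 against 0.250 over all genes, of which 67.2% were higher. With equal-number lists Lgals3 alone was higher in co-culture (0.50), Spp1 (−0.50) and Msr1 (−0.250) were lower, and Mrc1, Gpnmb and Cd274 were at 0. Deposited lists were longer on average in hypoxia and in co-culture, though that of co-culture hypoxia replicate 2 (21633 peaks) was shorter than every monoculture hypoxia or co-culture normoxia list.

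Genes around the members' pathways were read from lists of related genes. Of 30 other macrophage genes, 27 had a peak in some library and 10 in all 8. A gene's mean percentile is that of its best peak over the 8 libraries, with a library without a peak at 0. The highest were at Cd36, a fatty-acid and lipoprotein receptor (88.1), Adam8, a metalloprotease (87.8), and Il4ra, a chain of the interleukin 4 receptor (83.5). Of the 102 regions of this list, 4 were gained with hypoxia in both cultures (1.93% of all regions near genes), 1 each at Cd36, Cd44 (a receptor for osteopontin and hyaluronan), Folr2 (a folate receptor) and Il10 (an anti-inflammatory cytokine). Cd44 had 1 and 0 peaks in monoculture normoxia, 3 and 2 in monoculture hypoxia, 1 and 1 in co-culture normoxia, and 4 and 4 in co-culture hypoxia. Itgav, an integrin chain that also binds osteopontin, had 3, 1, 4, 4, 3, 3, 5 and 4 in the same order, and its partner chain Itgb3 had 2, 1, 2, 2, 2, 1, 2 and 1, with a region lost with co-culture in hypoxia. In monoculture, hypoxia gained 30 of the 102 regions (17.6% of all regions near genes), and co-culture in normoxia gained 16 (13.4%).

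All 20 regulators had a peak in some library and 8 in every library. Jun (97.3), Nfe2l2 (89.1) and Stat3 (88.0) ranked highest by mean percentile, and Hif1a, whose protein is stabilised when oxygen is low, had 1 or 2 peaks in each library. Stat6, which carries the interleukin 4 signal, had 0 and 0 peaks in monoculture normoxia and 2 or 3 in each other library. Klf4 had the only regulator region gained with hypoxia in both cultures. Among 15 widely expressed genes, all had a peak somewhere and 10 in all 8 libraries, with Sdha (94.2), Ywhaz (89.0) and Gusb (86.1) at the top. A region at Eef1a1 was lost with hypoxia in both cultures and 1 at Actb gained with co-culture at both oxygen levels. Widely expressed genes with a peak numbered 13 and 10 in monoculture normoxia and 14 or 15 in every other library, a change of the same sign as that of the members. Among the microglial markers Aif1 (87.0), Ptprc (83.0) and P2ry12 (80.6) ranked highest, and Ptprc, which encodes CD45, the sort marker, had 2 regions gained with hypoxia in both cultures. Of the glial markers Vim (45.0, with a peak in 6 libraries), Nes (17.7) and Sox2 (13.6, each with a peak in 3) ranked highest.

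Of the 88 genes in these lists, those most like each member were found by the mean absolute difference in peak number over the 8 libraries. Peak numbers are small, so many genes tie at the same difference. Fabp5 matched Msr1 exactly (difference 0), and Gapdh and Sdha differed by 0.125. Clec7a (0.375), then Il10 and Folr2 (0.50 each), were nearest to Mrc1, and Klf4 (0.375), then Folr2, Arnt and Ywhaz (0.50 each), to Gpnmb. Rplp0, Tfe3, Il10, Itgax and Tyrobp were equally near to Lgals3 (0.375), as were Cd63 and Tgfbi to Spp1 (0.250). Hprt was nearest to Cd274 (0.625), and Ppia was level with 7 other genes at 0.750.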

How the data were processed

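The authors called peaks per library, so 8 lists of ATAC-seq peaks were used. The submitters' processing notes name Trimmomatic 0.36, HISAT2 2.1.0, Picard, SAMtools, deepTools, MACS2 2.1.1.2 and the mm10 build. Settings, and any shift of reads for Tn5, are not given in the sources used here. The deposited columns are a fold ratio over background, a −log10 p, a −log10 q, a summit offset in bp, and a score, which repeats the −log10 q times 10 without its decimals. They were used to rank and filter peaks within a list and to solve the summit and background values below, which are compared between libraries. The fold itself is set side by side between libraries at Gpnmb and Lgals3 only.

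Genes came from RefSeq tables of GRCm38.p6, matched by symbol (8 of 8 members). A peak was near a gene when at least 1 bp lay within 10 kb of the gene body. Percentiles rank the −log10 p within a list. Overlapping peaks (at least 1 bp) were merged into regions. Summit fragments (n) and local background (b) were solved from fold = (n + 1)/(b + 1) and a Poisson p, to within 0.001 of the deposited −log10 p, and the commonest b of a list was its list background. Read totals were not used, so no counting intervals are given. Peak numbers were compared with exact permutation tests, adjusted by Benjamini-Hochberg over 15210 genes. Scripts were tested on simulated data. A check for pairing by replicate number gave a correlation for each pair of groups over 40784 regions. These values lay between −0.0202 and 0.0396, so libraries were not paired. They bear on pairing alone and do not measure how alike the lists are. The members, and regions found in at least 2 libraries, are named. So are the 3 highest-ranked genes of each list and list genes with a region separating 4 libraries from 4. Pdcd1lg2, Itgav, Itgb3, Hif1a, Stat6, Retnla, Tmem119 and Itgam were named after their values were seen. A further gene of the set is not reported here. Members and lists were chosen with earlier results of these data known. Scripts ran in Python 3.11.15 (pandas 2.3.3, numpy 2.4.6, scipy 1.17.1, with plots by matplotlib 3.10.9).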

Additional observations from a re-analysis of the deposited data

How the results depend on the processing

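With equal-number lists, members with a peak differed by −0.50 for hypoxia minus normoxia and by −0.50 for co-culture minus monoculture, where the deposited lists gave 1.25 and 0.750. Member peaks per library differed by −0.750 and −0.250, where the deposited lists gave 5.5 and 1.5. In the same lists, hypoxia in monoculture gained 1 region and lost 1, hypoxia in co-culture gained 0 and lost 1, and co-culture gained 1 in normoxia and 0 in hypoxia. Single genes that changed sign there were Spp1 (−0.50) and Msr1 (−0.750) for oxygen and Msr1 (−0.250) for culture. The cause was not tested. Spp1 for culture was 0.250 with a distance of 50 kb and 0.250 without co-culture hypoxia replicate 2, and Lgals3 for culture was −0.250 without monoculture hypoxia replicate 1.

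With only peaks overlapping the gene body (0 kb), member peaks differed by 2.25 for oxygen and 0.750 for culture, each of hypoxia in monoculture, hypoxia in co-culture and co-culture in normoxia gained 1 of 12 regions (17.6%, 5.77% and 13.9% of all regions near genes), and co-culture in hypoxia lost 0 (3.32%). With 20 kb, member peaks differed by 3.25 for culture, and co-culture gained 5 of 24 in normoxia (13.2%), 2 in hypoxia (6.10%) and 1 at both oxygen levels (1.99%). With 50 kb, member peaks differed by 10.8 and 7.75, hypoxia in monoculture gained 9 of 43 (17.7%), hypoxia in co-culture lost 1 (2.07%), and co-culture gained 13 in normoxia (12.9%), 3 in hypoxia (5.92%) and 2 at both oxygen levels (1.94%). Wider distances search more DNA by construction. At each of 0, 20 and 50 kb, members with a peak differed by 0.750 for oxygen and 0.250 for culture.

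Leaving out each library in turn gave differences in members with a peak of 1.0 to 1.5 for oxygen and 0.50 to 1.0 for culture, and in member peaks of 3.75 to 7.25 for oxygen and −0.250 to 3.25 for culture, the −0.250 without co-culture hypoxia replicate 1. Over these fits hypoxia in monoculture gained 4 to 8 (17.9% to 30.1% of all regions near genes) and lost 0 to 3 (0.182% to 1.78%). Hypoxia in co-culture gained 2 to 7 (5.98% to 20.2%) and lost 0 to 1 (2.08% to 6.93%). Co-culture in normoxia gained 3 to 4 (13.6% to 22.7%) and lost 0 to 3 (0.146% to 2.21%). Co-culture in hypoxia gained 1 to 3 (6.16% to 17.3%) and lost 1 to 3 (3.55% to 11.7%). Hypoxia in both cultures gained 0 to 1 (2.05% to 4.17%). A 5 kb distance, a stricter threshold (−log10 q of at least 3), leaving out peaks wider than 10 kb and requiring the summit within 10 kb changed no sign and moved no count of gained or lost regions by over 1.5 times. Windows of 250 bp around summits, run on those counts alone, did not either. With the replicate block (16 relabellings, smallest possible p 0.125), Mrc1 and Gpnmb again differed by 1.5 with oxygen, at an exact p of 0.250 each. Over 272 results for single members under 17 alternatives, 6 changed sign and 0 had a p under 0.05. The monoculture normoxia pair had the fewest peaks, and a missing peak there does not show a closed region. The part of depth in list length was not tested. The commonest background was 0.758 and 1.03 fragments in monoculture normoxia (13333 and 9910 peaks) and 1.07 to 1.45 in the other libraries (21633 to 29658 peaks). Median summit fragments were 18 and 21 in monoculture normoxia and 24 to 30 in the other libraries.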

Other observations

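Beyond 10 kb, 2 regions near members were present in all 4 co-culture libraries and no monoculture library. One lay 14.7 kb from Gpnmb (chr6:49021000-49021787, near Gm52881), at percentiles 39.6 to 76.3, and the other 31.4 kb from Lgals3 (chr14:47341851-47342458, near Gm41147), at 52.2 to 70.4. Each was in 3 equal-number lists. The wider distances were planned, but these regions were singled out after their values were seen. Co-culture libraries also carried peaks at 3 to 8 of the 12 glial markers, and whether these regions belong to BV2 or GL261 cells was not tested.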
